A study of Homo sapiens with 9 samples.

Results

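The sites described here are the CCCGGG sites that lie within 1 Mb of a human chromosome end. A site was taken when it was on an autosome, had a methylation value in all 9 libraries, and stood no more than 1000000 bases from the highest listed position of its chromosome. The same distance from the lowest listed position was allowed on 17 chromosomes (1 to 12 and 16 to 20), so that 39 ends were covered, 17 low ends and 22 high ends. Distances are counted from the outermost listed site, not from the telomere itself. The rule found 4188 sites, which is 7.18% of the 58310 autosomal sites with a value in every library and part of the 59751 such sites of the whole series.

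Libraries were made by DREAM (digital restriction enzyme analysis, a read-out of methylated and unmethylated CCCGGG cuts) from HEK293T cells, a kidney-derived human line with the SV40 T antigen. Cells carried a pIRES plasmid for full-length TET1 (TET1-FL), a pIRES plasmid for the TET1-ALT isoform, or the empty vector, with 3 libraries in each group, and DNA was taken 4 days after lipofection. All 3 groups were therefore transfected, and the cells keep whatever TET1 they make themselves. Each value is the percentage of methylated reads at 1 site and needed at least 20 reads, with the depth otherwise unknown, and 4325 to 5022 of the 14408 listed subtelomeric sites had a value in a given library. The labels number the libraries without saying that they came from separate cultures, so every p-value measures the spread between these libraries, which may be technical.

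Subtelomeres are the stretches between the telomere repeats and the rest of the chromosome arm, rich in C and G and in duplicated sequence and, at many ends, dense in genes. In normal human cells their CpG sites are largely methylated, and cells with a defective DNMT3B methyltransferase lose much of it. TET1 is a dioxygenase that oxidises 5-methylcytosine, which starts the way back to unmodified cytosine. Full-length TET1 has a CXXC domain that binds CpG-rich DNA, and TET1-ALT is the shorter isoform without it. In mouse embryonic stem cells, Tet enzymes have been linked to subtelomeric methylation and to telomere length.

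What lies at such sites can be seen in promoters. RefSeq promoter sequences (GRCh38.p14, 250 bases before to 50 bases after each gene's start) were placed on the listed hg19 sites by the spacing of their CCCGGG motifs, a step added after seeing the data. Of 35116 promoters, 20.9% held the motif CCCGGG, which reads the same on both strands, and 1.07% held at least 3. A unique match of spacings was found for 312 promoters of 300 genes, and all 312 fell on the chromosome RefSeq gives. Of these genes 15 were subtelomeric. The 3 methylated promoters and 1 of the unmethylated ones are shown, each 5′ to 3′ on the strand of its gene, with the measured motif CCCGGG in capitals.
TTLL8: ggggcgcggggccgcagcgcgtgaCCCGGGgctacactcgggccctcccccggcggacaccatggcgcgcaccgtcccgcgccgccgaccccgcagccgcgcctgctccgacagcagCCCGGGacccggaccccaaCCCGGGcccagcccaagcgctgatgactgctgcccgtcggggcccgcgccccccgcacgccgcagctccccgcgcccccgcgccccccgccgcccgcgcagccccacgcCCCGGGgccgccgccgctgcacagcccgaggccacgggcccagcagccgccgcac
LOC105378572: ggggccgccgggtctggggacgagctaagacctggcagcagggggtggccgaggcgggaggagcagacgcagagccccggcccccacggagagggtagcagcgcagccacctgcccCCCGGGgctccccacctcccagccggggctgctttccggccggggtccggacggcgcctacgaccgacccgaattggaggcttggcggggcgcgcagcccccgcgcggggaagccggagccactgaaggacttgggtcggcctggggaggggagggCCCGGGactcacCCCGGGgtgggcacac
LOC101928796: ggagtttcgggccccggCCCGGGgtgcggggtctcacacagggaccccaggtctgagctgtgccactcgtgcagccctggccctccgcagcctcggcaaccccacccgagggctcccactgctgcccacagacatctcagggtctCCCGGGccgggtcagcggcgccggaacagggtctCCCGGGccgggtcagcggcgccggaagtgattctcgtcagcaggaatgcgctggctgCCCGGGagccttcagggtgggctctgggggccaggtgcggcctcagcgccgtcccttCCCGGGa
MAPK11: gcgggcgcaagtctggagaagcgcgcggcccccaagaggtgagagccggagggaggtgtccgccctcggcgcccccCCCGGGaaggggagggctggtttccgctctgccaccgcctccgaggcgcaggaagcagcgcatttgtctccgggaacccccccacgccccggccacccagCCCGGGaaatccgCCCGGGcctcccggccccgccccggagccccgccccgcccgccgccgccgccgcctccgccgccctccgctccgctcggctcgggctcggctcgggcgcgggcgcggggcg

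The promoter of TTLL8, a tubulin glycylase gene on the minus strand of chromosome 22, was methylated throughout. In the order of its sequence above, the 4 motifs averaged 73.7% (position 50496951), 88.9% (50496858), 91.5% (50496839) and 96.3% (50496730), the last starting 5 bases before the gene's start. Over the 4 sites TTLL8 had 87.6, 89.2 and 88.3% in TET1-FL libraries, 86.2, 90.0 and 84.4% in TET1-ALT libraries, and 87.9, 90.2 and 84.7% in empty vector libraries. All 3 groups overlapped at TTLL8.

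LOC105378572, an uncharacterised gene on the plus strand of chromosome 10, had 81.5, 89.7 and 88.4% at its motifs (134756740, 134756896 and 134756908). Its mean was 84.8 ± 1.65% in TET1-FL libraries, 87.2 ± 1.56% in TET1-ALT libraries and 87.6 ± 0.843% in empty vector libraries (SD, n = 3 each). LOC101928796, also uncharacterised and on the plus strand of chromosome 21, was graded along its promoter. Its motif 233 bases before the start (47392654) averaged 82.1%, the next one (47392782) averaged 47.0%, and the one 44 bases after the start (47392930) averaged 6.80%. The promoter mean of LOC101928796 was 45.7 ± 1.26% with TET1-FL, 44.0 ± 1.12% with TET1-ALT and 46.2 ± 0.627% with the empty vector (SD, n = 3 each), and 2 of its 5 motifs had no complete value.

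The other 12 promoters were unmethylated, each with a mean under 5%. MAPK11, which encodes a p38 kinase, averaged 0.577% at 3 sites on chromosome 22, the same high end that carries TTLL8. Among the printed promoters, CpGs number 48 in TTLL8, 29 in LOC105378572, 25 in LOC101928796 and 44 in the unmethylated MAPK11. Unmethylated promoters also included HDLBP, STK25, TRIM7, NSMF, CIAO3, YES1, LOC101928416, LOC107987228 and LOC101927863. Unmethylated promoters were 12 of the 15 subtelomeric ones and 203 of 245 (82.9%) placed the same way elsewhere on the autosomes.

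Subtelomeric sites as a whole were more methylated than the other autosomal sites. Their mean was 51.7% and their median 64.5%, against 42.6% and 38.1% at the 54122 other sites. The level was not particular to the last Mb. Counted from the outermost listed site, sites from 1000 to 1100 kb averaged 56.5%. Sites from 1100 to 2000 kb averaged 52.1% and those from 2000 to 5000 kb 50.4%. Further in, the means were 45.7% from 5000 to 10000 kb and 38.5% at more than 10000 kb. The mean was higher at subtelomeric sites in 9 of 9 libraries, by 9.08 to 9.28 points, and on 18 of 22 chromosomes. By chromosome, the difference ran between -24.4 points on chromosome 14 (16 subtelomeric sites) and 25.9 points on chromosome 18 (172 subtelomeric sites). Its median was 7.99 points. These are descriptions of places in 1 cell line, and sites are not replicates, so no test was made of them.

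The difference lay in the share of unmethylated sites. Sites under 5% made up 28.1% of subtelomeric sites (1176) and 39.4% of the others (21303), and the subtelomeric share was smaller on 19 of 22 chromosomes. Beyond the limit the share under 5% was 19.5% from 1000 to 1100 kb, 25.6% from 1100 to 2000 kb and 27.7% from 2000 to 5000 kb. It was 34.65% from 5000 to 10000 kb and 45.3% at more than 10000 kb. Sites of 20 to 80% made up 29.2% of subtelomeric sites and 24.0% of the others. Sites of 80 to 95% made up 27.2% against 22.2%, and sites over 95% made up 10.6% against 8.90%. The classes above 20% were therefore fuller near the ends, while sites of 5 to 20% made up 4.89% against 5.48%.

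CCCGGG motifs were also crowded there. The table listed 369 sites per Mb in the ends and 125 per Mb elsewhere, and 29.1% of the listed subtelomeric sites had a value in all libraries, against 15.8% of the others. In most of the genome, crowded CpG-rich sequence is unmethylated, as at CpG islands. Among sites with 6 or more listed neighbours within 1000 bases, 48.3% of the 625 subtelomeric sites were under 5%, against 71.4% of the 4350 others. In that crowded class 25.3% of subtelomeric sites and 13.2% of others were at 80% or more. Among sites with 0 to 2 neighbours, 15.0% of subtelomeric sites and 27.1% of the others were under 5%.

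The level of an end went with the number of CCCGGG sites in its whole Mb. Ends were set beside consecutive 1 Mb tiles from the rest of the autosomes with a like number of listed sites, taking ends and tiles with at least 10 complete sites, which left out the high end of chromosome 1 (1 complete site) and the low end of chromosome 3 (8). The 17 ends with 400 or more listed sites had a median level of 55.1%, against 50.1% in 73 other tiles. The 12 ends with 200 to 400 had 41.1%, against 43.5% in 389 tiles, and the 8 ends with fewer than 200 had 30.8%, against 36.3% in 870 tiles. So the median lay above that of like tiles for the ends richest in motifs and below it for the other ends. Within tiles of 400 or more listed sites, crowded sites (6 or more neighbours) averaged 36.1% near the ends (n = 530) and 22.6% elsewhere (n = 1151). The difference was 13.2 to 13.6 points in each of the 9 libraries. These libraries come from 1 cell line, so their agreement does not measure the spread between places, which is not given here. In the same tiles, sites with 0 to 2 neighbours averaged 65.1% near the ends and 60.7% elsewhere.

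**Figure D1:**
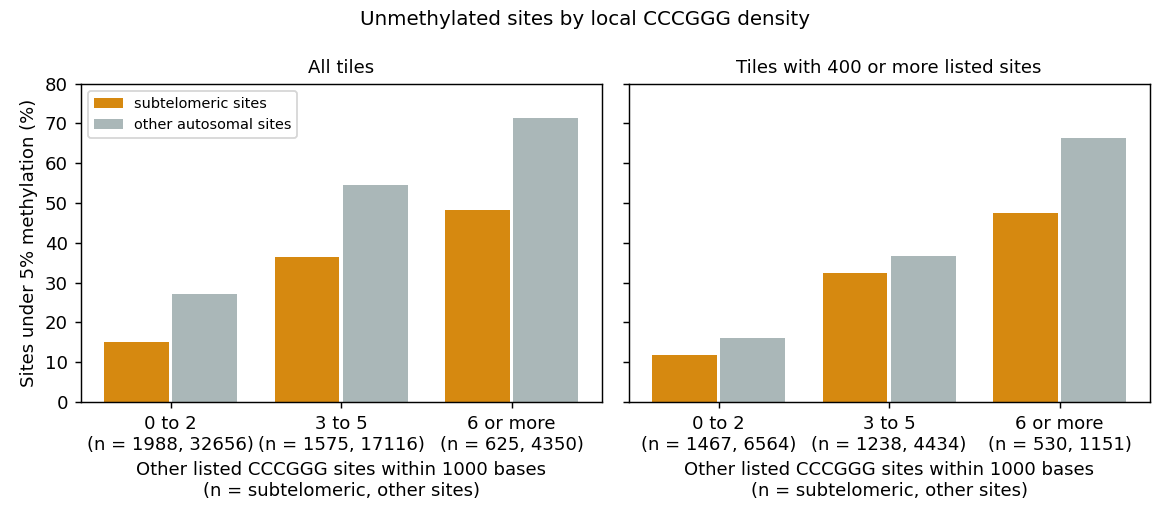
Share of sites under 5% methylation (y axis, percent) by the count of listed neighbours within 1000 bases (x axis), for subtelomeric sites and other autosomal sites. In tiles with 400 or more listed sites, the crowded class holds 47.5% unmethylated sites near the ends and 66.3% elsewhere.

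Within the ends, methylation did not run smoothly with distance. From 0 to 100 kb, 38.4% of sites were at 80% or more and 18.4% were under 5%, over 125 sites. From 100 to 250 kb, 26.6% were at 80% or more and 35.8% were under 5%, over 335 sites. From 250 kb inward to 900 kb the share at 80% or more lay between 38.7 and 40.8%. The outermost 100 kb were also the least complete, with 13.4% of listed sites measured in all libraries, against 35.4% from 900 to 1000 kb. Just inside the 1 Mb limit (900 to 1000 kb) 30.2% of sites were under 5%, and just outside it (1000 to 1100 kb) 19.5% were.

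The single ends spanned a wide range. The highest mean levels were 66.1% at the high end of chromosome 18, 65.3% at the high end of chromosome 21 and 64.2% at the low end of chromosome 6. The lowest among ends with at least 10 sites of 20 to 95% were 27.1% at the low end of chromosome 18, 28.3% at the low end of chromosome 8 and 30.01% at the low end of chromosome 20. Chromosome 18 thus held both the most and the least methylated of these ends. The number of complete sites per end ran from 1, at the high end of chromosome 1, to 326, with a median of 78.

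The first comparison asks whether full-length TET1 lowered methylation near the ends. Changes were read at the 2363 subtelomeric sites whose mean over all libraries was 20 to 95%, where a change in either direction is possible. Their mean was 71.1, 71.7 and 71.4% in the TET1-FL libraries, against 72.9, 73.2 and 72.5% in the empty vector libraries. All TET1-FL libraries were below all empty vector libraries. The means were 71.4 ± 0.312% with TET1-FL and 72.9 ± 0.310% with the empty vector (SD, n = 3 each), a difference of -1.43 points (range over the library pairs -2.04 to -0.798). The two-sided exact permutation test gave p = 0.1, the smallest that 3 libraries against 3 allow.

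TET1-FL libraries were lower in every class of methylation, by amounts that differed between classes. At the 1222 sites of 20 to 80%, TET1-FL libraries had 55.2, 56.1 and 55.7%, against 57.5, 57.8 and 57.2% in empty vector libraries, differing by -1.84 points. At the 1141 sites of 80 to 95% the difference was -0.992 points, and at the 444 sites over 95% it was -0.409 points. At the 205 sites of 5 to 20% it was -0.857 points, with 11.1, 11.3 and 11.1% in TET1-FL libraries and 12.2, 11.8 and 12.03% in empty vector libraries. At the 1176 unmethylated sites the difference was -0.0673 points, on levels of 0.535 ± 0.0129% with TET1-FL and 0.603 ± 0.0265% with the empty vector (SD, n = 3 each). The libraries did not overlap in any of the 5 classes (exact permutation p = 0.1 each, 0.188 after Benjamini-Hochberg adjustment over 15 tests of classes). When each library was centred on its mean over the other autosomal sites of 80% or more, which adds 0.959 points to each TET1-FL minus empty vector difference, the classes under 5%, of 5 to 20% and over 95% turned positive, while the difference at sites of 20 to 95% was -0.474 points (exact permutation p = 0.1). After centring, sites of 20 to 80% differed by -0.886 points (exact permutation p = 0.1) and sites of 80 to 95% by -0.0329 points (exact permutation p = 0.9).

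At sites of 20 to 95%, the difference near the ends was slightly smaller in size than elsewhere. Other autosomal sites of like mean methylation, weighted to the subtelomeric sites in 5-point bins, differed by -1.56 points between TET1-FL and the empty vector, against -1.43 points near the ends. In each library the subtelomeric mean minus the mean of the like sites was taken as the gap. The gap was 0.118, 0.170 and 0.0758 points in the TET1-FL libraries and -0.140, 0.0628 and 0.0612 points in the empty vector libraries. Its difference was 0.126 points (range over the library pairs 0.0130 to 0.310, exact permutation p = 0.1), so that TET1-FL libraries lay above all empty vector libraries by a margin as small as 0.0130 points. That gap was 0.252 points within 500 kb of the ends, 0.00195 points within 2 Mb, 0.0511 points at sites of 20 to 80% (exact permutation p = 0.9) and 0.0591 points without empty vector library 1, so its size depended on the sites and libraries taken. The groups overlapped with at least 2 libraries per group (exact permutation p = 0.4), with equal weight per end (0.3) and with bins crossed with local density (0.2). In bins of methylation, the regions parted most at 80 to 95%, with -0.992 points near the ends and -1.20 points elsewhere. At 20 to 35% the differences were -1.50 points near the ends and -1.42 points elsewhere. Outside 20 to 95%, the unweighted TET1-FL minus empty vector difference was larger in size near the ends in 2 classes. It was -0.857 points against -0.764 elsewhere at 5 to 20%, and -0.409 against -0.345 over 95%. Under 5% it was smaller in size, at -0.067 points against -0.073. Over all sites, unweighted, it was -0.913 points near the ends and -0.821 points elsewhere. Sites under 5%, which differed least, made up 28.1% of sites near the ends and 39.4% elsewhere, so these 2 means cover unlike mixes of classes.

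**Figure D2:**
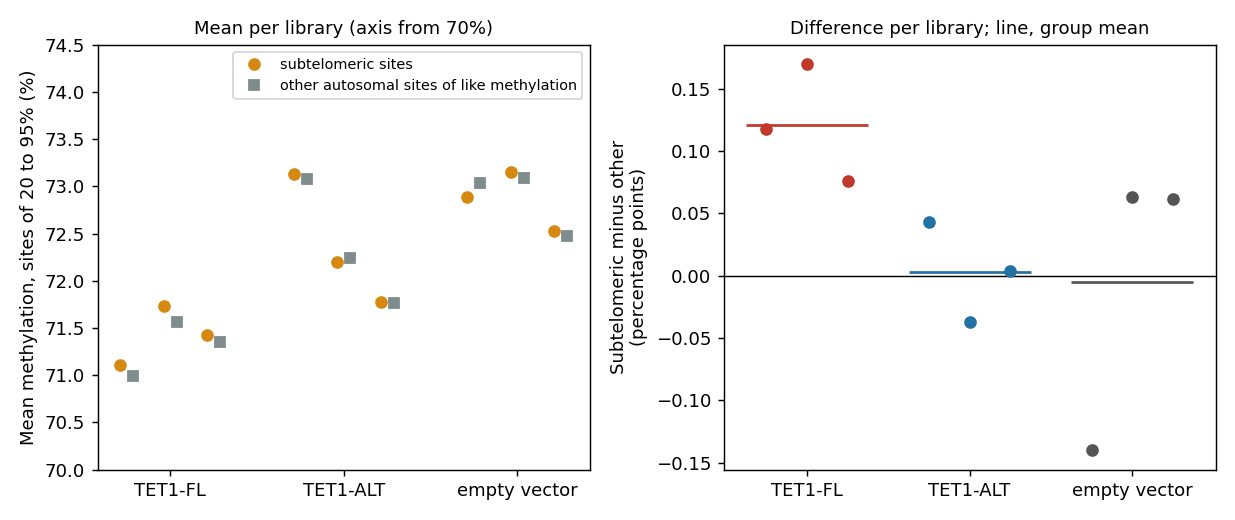
Left, mean methylation (y axis, percent, starting at 70%) of sites of 20 to 95% in each library, for subtelomeric sites and for other autosomal sites weighted to like methylation; right, the subtelomeric mean minus the other mean (y axis, percentage points) in each library with the group mean as a line. TET1-FL libraries lie lowest on the left for both kinds of site, and the right panel spans -0.140 to 0.170 points.

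The difference was negative at all distances from the end. Between TET1-FL and the empty vector it was -1.42 points within 100 kb (77 sites), -1.75 points from 100 to 250 kb (172 sites) and -1.16 points from 250 to 500 kb (563 sites). Beyond the limit it was -1.85 points from 1000 to 1100 kb and -1.51 points at more than 10000 kb. In all of these bins the range over the library pairs stayed below 0. The low ends had 70.6% with TET1-FL and 72.0% with the empty vector over 1039 sites (-1.47 points), and the high ends had 72.1% with TET1-FL and 73.5% with the empty vector over 1324 sites (-1.40 points). By local density, sites with 0 to 2 neighbours differed by -1.43 points near the ends and by -1.60 points elsewhere, those with 3 to 5 by -1.44 and -1.48 points, and those with 6 or more by -1.41 and -1.19 points.

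**Figure D3:**
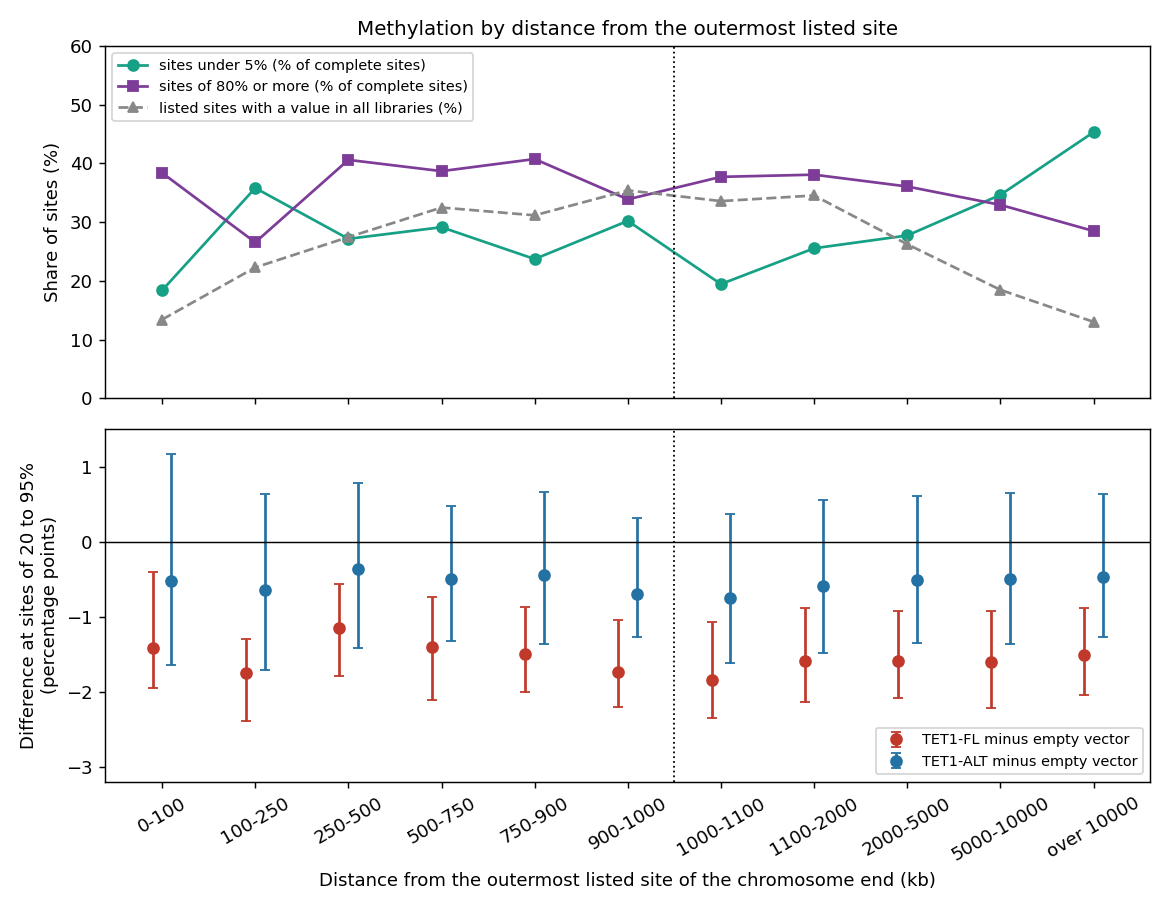
Top, shares of sites (y axis, percent) under 5%, at 80% or more and with a value in all libraries, by distance from the outermost listed site (x axis, kb); bottom, difference at sites of 20 to 95% (y axis, percentage points) for TET1-FL and TET1-ALT minus the empty vector, with bars for the range over the 9 library pairs and a dotted line at 1 Mb. TET1-FL bars lie below 0 in every bin, and every TET1-ALT bar crosses 0.

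No single subtelomeric site could be called. limma, fitted over 59742 sites with Benjamini-Hochberg adjustment, called 0 sites at an adjusted p under 0.05 (0% of all sites tested), and the smallest adjusted p of a subtelomeric site was 0.352. With no adjustment, 393 lower and 62 higher subtelomeric sites had a p under 0.05, and after centring 113 were lower and 1060 higher. The same counts over all sites are not given here, so these have no background. Among the 2363 sites of 20 to 95%, the 3 TET1-FL libraries lay below all empty vector libraries at 381 (16.1%) and above them at 43 (1.82%). Over all autosomal sites of that range the shares were 16.8% lower and 1.68% higher, so the subtelomeric shares were near the background. The mean was lower with TET1-FL at 74.4% of the subtelomeric sites and at 75.3% of the others.

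The sites that differed most are described without a further test, since their difference chose them. They may share fragments with neighbours, because 91.8% of the subtelomeric sites have another listed site within 500 bases. The most negative was at position 266641 of chromosome 12, 193 kb from the outermost site. It had 48.8, 36.8 and 51.9% in TET1-FL libraries, 55.3, 57.8 and 55.4% in TET1-ALT libraries, and 65.5, 60.9 and 73.3% in empty vector libraries. The site at 58991829 of chromosome 19 had 83.9, 74.0 and 77.6% with TET1-FL, against 89.4, 95.2 and 97.7% with the empty vector. The next were 603376 on chromosome 11 (-15.2 points), 1036988 on chromosome 11 (-13.5 points), 135014095 on chromosome 10 (-13.4 points) and 136497 on chromosome 17 (-12.9 points). Differences of at least 10 points without overlap were seen at 12 sites in the lower and 5 in the higher direction, once sites of 20 to 95% are counted. The same counts over all autosomal sites are not given here, so these have no background.

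Some sites were higher with TET1-FL. The site at 77706207 of chromosome 18 had 43.0, 51.7 and 57.3% in TET1-FL libraries, against 39.9, 38.9 and 27.4% in empty vector libraries, and 64.9, 43.1 and 52.1% in TET1-ALT libraries. The site at 976997 of chromosome 9, which had a low level with the empty vector, had 17.3, 23.8 and 24.9% with TET1-FL, against 10.6, 7.43 and 6.37% with the empty vector. The others were 132994106 on chromosome 12 (12.02 points), 170202282 on chromosome 6 (11.9 points), 242498516 on chromosome 2 (11.8 points) and 133294399 on chromosome 12 (10.8 points). The adjusted p of these 12 sites by limma lay between 0.381 and 0.467.

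Whole ends average many sites. Of 37 ends with at least 5 sites of 20 to 95%, the mean was lower with TET1-FL at 36 and higher at 1. The libraries did not overlap at 26 of the lower ends and at the 1 higher end. The share of other tiles without overlap is not given here, so these counts have no background. The median difference was -1.42 points over the ends and -1.54 points over the other tiles, of which 92.8% were lower. limma over 1129 tiles gave an unadjusted p under 0.05 at 17 ends, all lower, where the background over all tiles is 42.2% lower and 0.443% higher. After centring, 31 of the 37 ends were lower, with an unadjusted p under 0.05 by limma at 3 lower ends and 1 higher end. The shares over all tiles after centring are not given here, so these centred counts have no background. Without centring, limma called 1 end at an adjusted p under 0.05, and 1.68% of all tiles.

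**Figure D4:**
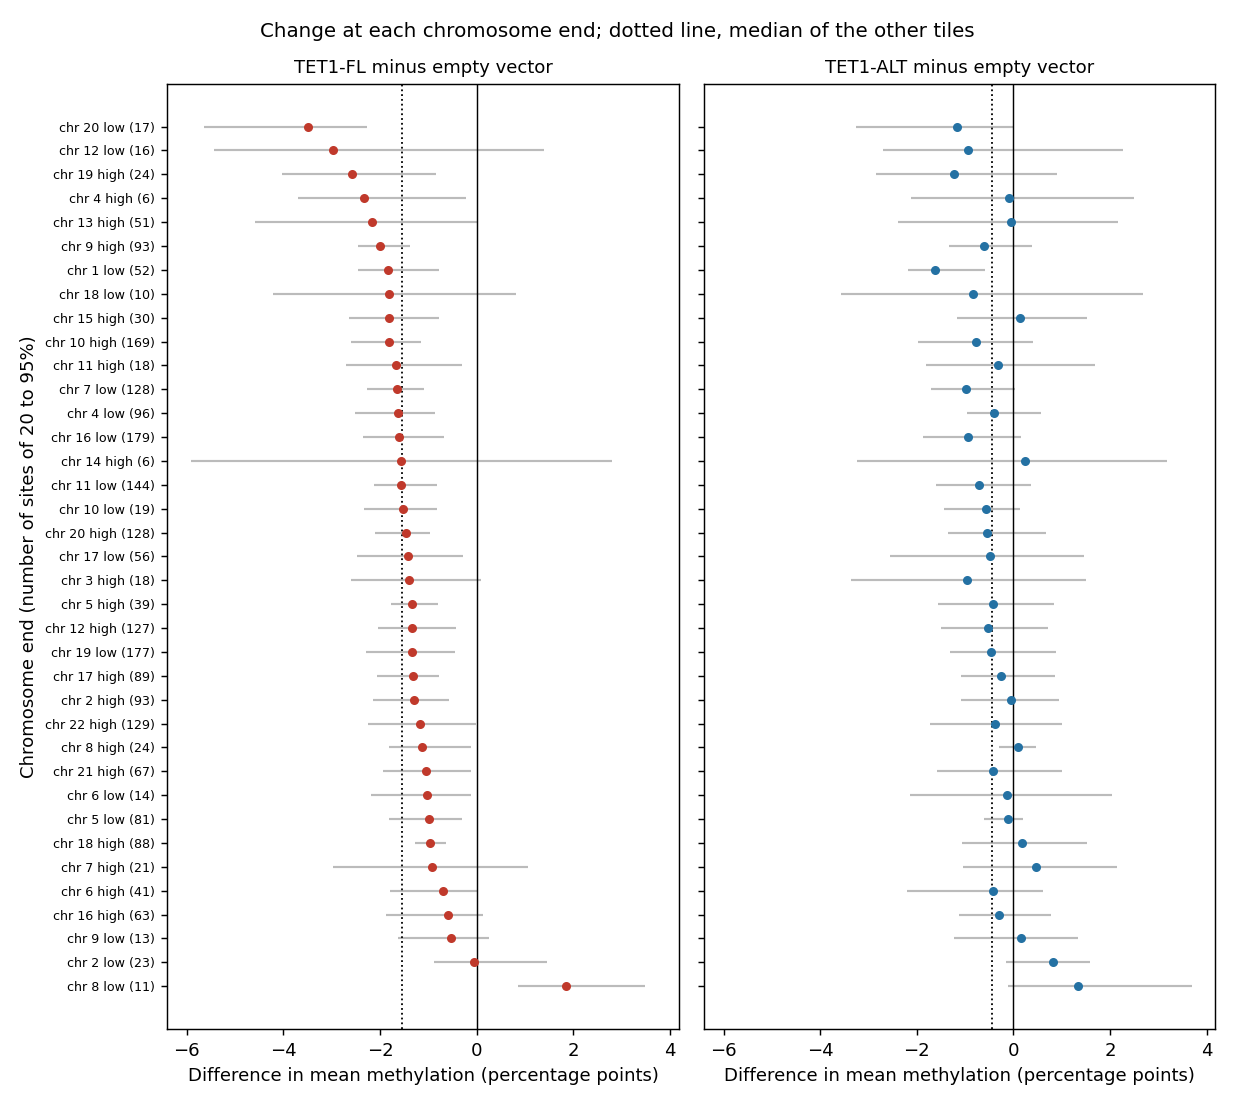
Difference in mean methylation of sites of 20 to 95% (x axis, percentage points) at each of 37 chromosome ends (y axis, with the number of sites) for TET1-FL (left) and TET1-ALT (right) minus the empty vector; bars show the range over the 9 library pairs and the dotted line the median of the other tiles. At 36 of 37 ends the TET1-FL point lies below 0, from -3.48 points at the low end of chromosome 20 to 1.86 points at the low end of chromosome 8.

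The called end was the low end of chromosome 20 (hg19 listed sites 82020 to 1081657). Its 17 sites of 20 to 95% averaged 70.5, 70.7 and 69.6% in TET1-FL libraries, 73.0, 72.8 and 72.0% in TET1-ALT libraries, and 73.0, 75.2 and 72.9% in empty vector libraries. The TET1-FL libraries lay below those of both other groups. The difference from the empty vector was -3.48 points (SE 0.715, limma adjusted p = 0.0409), and 16 of the 17 sites were lower. The adjusted p by limma was 0.105, 0.0561 and 0.106 without TET1-FL libraries 1, 2 and 3. It was 0.0548 without TET1-ALT library 2, and 0.0775 and 0.0981 without empty vector libraries 1 and 2. The call was therefore lost when any 1 of these libraries was left out. The difference itself was -3.60, -3.69 and -3.15 points without TET1-FL libraries 1, 2 and 3. It was -3.83 and -2.73 points without empty vector libraries 1 and 2, and unchanged without TET1-ALT library 2.

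The difference at that end lay mostly in its middle. Over the 5 sites from 500 to 600 kb the mean was 60.9, 60.5 and 61.6% with TET1-FL, against 65.8, 67.8 and 67.7% with the empty vector, differing by -6.10 points. Over the 4 sites from 600 to 700 kb the difference was -4.73 points, and over the 4 sites from 700 to 800 kb it was -0.518 points. The site at 681123 shows the order of the groups, with 48.9, 53.4 and 53.8% in TET1-FL libraries, 55.5, 54.5 and 58.9% in TET1-ALT libraries, and 58.7, 62.1 and 59.9% in empty vector libraries. At its neighbour 681383, TET1-FL libraries had 43.0, 40.6 and 44.1%, against 47.3, 47.5 and 58.1% with the empty vector.

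Other ends with large negative differences missed the threshold. The low end of chromosome 12 had -2.96 points (16 sites, adjusted p by limma 0.0719), where the libraries overlapped, and the difference was -5.57 points when 500 kb were taken. The high end of chromosome 19 had 62.0, 62.7 and 62.4% with TET1-FL, against 66.0, 65.3 and 63.5% with the empty vector, differing by -2.57 points (24 sites, adjusted p by limma 0.0625). The high end of chromosome 13 had -2.17 points (51 sites, adjusted p by limma 0.0797). The ends with the most sites sat near the median of all tiles: the low end of chromosome 16 (179 sites) had -1.60 points and the low end of chromosome 19 (177 sites) had -1.33 points.

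The low end of chromosome 8 went the other way, on 11 sites. Its mean was 49.3, 48.6 and 48.4% in TET1-FL libraries, 49.5, 47.4 and 47.8% in TET1-ALT libraries, and 45.8, 47.3 and 47.5% in empty vector libraries. TET1-FL libraries lay above all empty vector libraries, by 1.86 points on average (SE 0.921, adjusted p by limma 0.137). The 6 sites from 600 to 700 kb carried it, with 3.61 points for TET1-FL and 3.91 points for TET1-ALT. The largest TET1-FL differences there were at neighbouring sites, 687736 (9.61 points), 687479 (7.24 points) and 687366 (3.02 points). At 689448 the difference was 2.42 points, and at 688146 and 709440 it was -0.123 and -0.53 points. The median over the 11 sites of the end was 0.31 points. The site at 687736 had 40.6, 43.9 and 41.6% in TET1-FL libraries, 45.1, 43.0 and 42.9% in TET1-ALT libraries, and 28.8, 33.8 and 34.5% in empty vector libraries. Both TET1 groups were above the empty vector there, without overlap. With 2 Mb in place of 1 Mb the TET1-FL difference at this end was -0.0408 points, so the direction depends on the distance taken.

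The remaining ends with differences nearest to 0 or above were the low end of chromosome 2 (-0.0529 points, 23 sites), the low end of chromosome 9 (-0.522 points, 13 sites) and the high end of chromosome 16 (-0.596 points, 63 sites). At these ends the TET1-FL and empty vector libraries overlapped, and after centring their differences were 0.906, 0.437 and 0.363 points.

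**Figure D5:**
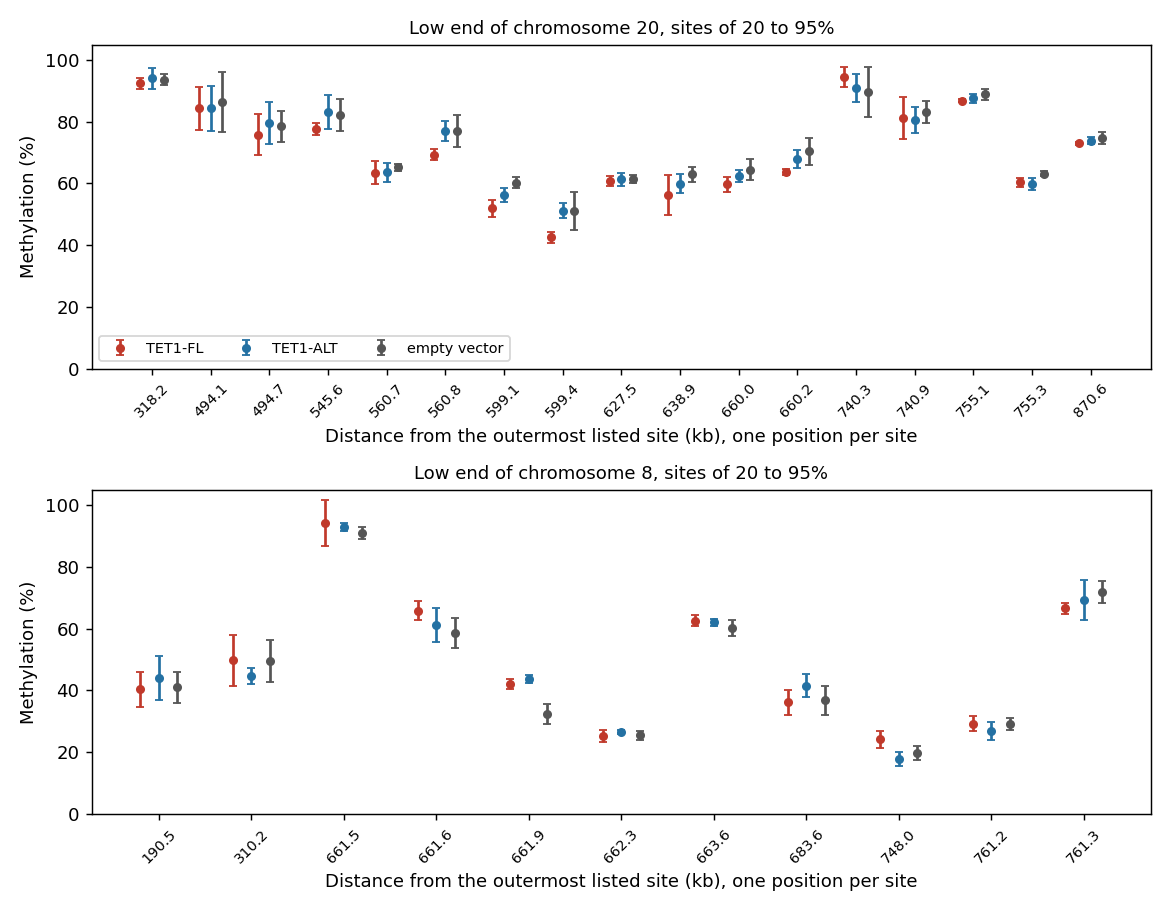
Methylation (y axis, percent, mean and SD of 3 libraries) of each site of 20 to 95% at the low ends of chromosomes 20 and 8, ordered by distance from the outermost listed site (x axis, kb, 1 position per site). On chromosome 20 the TET1-FL points lie under the empty vector points at 16 of 17 sites, and on chromosome 8 at 4 of 11.

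The second comparison asks the same of TET1-ALT, and it shares the empty vector libraries with the first. At the 2363 sites of 20 to 95%, TET1-ALT libraries averaged 73.1, 72.2 and 71.8%, against 72.9, 73.2 and 72.5% in empty vector libraries. TET1-ALT library 1 lay among the empty vector libraries, and the groups overlapped. TET1-ALT averaged 72.4 ± 0.694% and the empty vector 72.9 ± 0.310% (SD, n = 3 each), a difference of -0.493 points (range over the library pairs -1.38 to 0.594, exact permutation p = 0.3). The difference was -0.874 points without TET1-ALT library 1 and -0.195 points without TET1-ALT library 3.

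In the classes of methylation the TET1-ALT differences ran between -0.655 points at 20 to 80% and -0.0223 points under 5%, and the libraries overlapped in all 5 classes (exact permutation p of 0.3 or 0.4). After centring, the classes under 5% and over 95% turned positive, and the difference at sites of 20 to 95% was -0.226 points. The like autosomal sites differed by -0.502 points, so that the gap between the regions was 0.00858 points (range over the library pairs -0.100 to 0.183, exact permutation p = 1).

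For TET1-ALT, limma called 0 subtelomeric sites (0% of all sites tested). At an unadjusted p under 0.05, 169 were lower and 77 higher, and after centring 68 were lower and 117 higher. These unadjusted counts are given without a share over all sites. The 3 TET1-ALT libraries were all lower than the empty vector libraries at 174 of the 2363 sites (7.36%) and above them at 88 (3.72%), near the background of 7.66% lower and 3.19% higher. The site at 1036988 of chromosome 11 had 19.4, 13.9 and 18.5% in TET1-ALT libraries, against 35.5, 34.0 and 30.1% in empty vector libraries, and 11.4, 24.5 and 23.2% in TET1-FL libraries. Both TET1 groups were below the empty vector there. The site at 493638 of chromosome 7 differed by -12.6 points and the site at 419862 of chromosome 16 by -11.3 points. Higher sites were 77706207 on chromosome 18 (18.0 points), 687736 on chromosome 8 (11.3 points) and 61980378 on chromosome 20 (10.7 points).

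Among the 37 ends the TET1-ALT mean was lower at 29 (23 after centring) and higher at 8. The median was -0.428 points, against -0.452 points over the other tiles, of which 70.2% were lower before centring. Their share after centring is not given here. limma called 0 ends (0% of all tiles) and gave an unadjusted p under 0.05 at 1 end, where the background over all tiles is 4.78% lower and 1.15% higher. That end was the low end of chromosome 1, with 74.4, 73.9 and 73.9% in TET1-ALT libraries, against 76.1, 75.0 and 76.0% in empty vector libraries. It was the 1 end where no TET1-ALT library reached the lowest empty vector library. How many other tiles lacked overlap is not given here. The difference at this end was -1.63 points (SE 0.557, adjusted p by limma 0.741), and the TET1-FL difference there was -1.83 points. The next were the high end of chromosome 19 (-1.24 points), the low end of chromosome 20 (-1.16 points) and the low end of chromosome 7 (-0.983 points). The most positive were the low ends of chromosome 8 (1.34 points) and chromosome 2 (0.818 points), and the high ends of chromosome 7 (0.462 points) and chromosome 18 (0.168 points).

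The third comparison sets the isoforms against each other, using libraries of both earlier comparisons. At sites of 20 to 95% the TET1-FL libraries (71.1, 71.7 and 71.4%) all lay below the TET1-ALT libraries (73.1, 72.2 and 71.8%). The difference was -0.940 points (range over the library pairs -2.02 to -0.0332, exact permutation p = 0.1), and the nearest libraries differed by -0.0332 points. Without TET1-ALT library 1 the difference was -0.559 points, and after centring it was -0.248 points with overlapping libraries (exact permutation p = 0.4). Like autosomal sites differed by -1.06 points, and the gap between the regions was 0.118 points (range over the library pairs 0.0331 to 0.207, exact permutation p = 0.1), and 0.0305 points with equal weight per end (exact permutation p = 0.6) or 0.0600 points at sites of 20 to 80% (exact permutation p = 0.5).

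By class, the TET1-FL and TET1-ALT libraries did not overlap under 5%, at 80 to 95% and over 95%, with differences of -0.0450, -0.672 and -0.283 points, and they overlapped at 5 to 20% (-0.434 points) and 20 to 80% (-1.19 points). After centring, the direction turned in the classes under 5%, of 5 to 20%, of 80 to 95% and over 95%.

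Between the isoforms limma called 0 subtelomeric sites (0% of all sites tested). At an unadjusted p under 0.05, 196 were lower and 44 higher, and after centring 69 were lower and 909 higher. These unadjusted counts are given without a share over all sites. TET1-FL libraries lay below all TET1-ALT libraries at 244 of the 2363 sites (10.3%) and above them at 52 (2.20%), against a background of 11% and 1.97%. The most negative site was 141015117 on chromosome 9, with 71.4, 82.1 and 85.9% in TET1-FL libraries and 88.2, 92.5 and 97.7% in TET1-ALT libraries. The next were 266641 on chromosome 12 (-10.3 points) and 882805 on chromosome 11 (-9.74 points). The most positive were 170523976 on chromosome 6 (9.36 points), 132886454 on chromosome 12 (7.72 points) and 132924888 on chromosome 12 (7.52 points).

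TET1-FL was below TET1-ALT at 36 of the 37 ends (28 after centring), without overlap at 15. For this contrast too, the share of other tiles without overlap is not given here. The median was -0.935 points over the ends and -1.08 points over the other tiles, of which 89.3% were lower before centring. The share of other tiles lower after centring is not given here. limma called 0 ends, and 0.0886% of all tiles. An unadjusted p under 0.05 was found at 5 ends, all lower, beside a background of 17.4% lower and 0.177% higher. The most negative ends were the low end of chromosome 20 (-2.32 points), the high end of chromosome 13 (-2.12 points), the low end of chromosome 12 (-2.03 points) and the high end of chromosome 15 (-1.94 points). At the high end of chromosome 13, TET1-FL libraries had 68.6, 70.4 and 69.5%, TET1-ALT libraries 72.6, 71.5 and 70.8%, and empty vector libraries 71.4, 73.2 and 70.4%, so TET1-ALT overlapped with the empty vector. At the low end of chromosome 1, TET1-FL and TET1-ALT libraries overlapped, at -0.198 points, and both were below the empty vector. The other ends of least negative difference were the low end of chromosome 8 (0.518 points), the high end of chromosome 6 (-0.261 points) and the high end of chromosome 16 (-0.290 points). The TET1-ALT mean lay between the TET1-FL and empty vector means at 30 of the 37 ends.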

How the data were processed

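Per the labels, DNA was cut with SmaI, which needs an unmethylated CpG, and then with XmaI, and size-selected fragments were amplified by PCR, with no molecular identifier named. The deposited values are percent methylation per site, made by the authors from methylated and unmethylated reads and corrected with spiked-in standards, per the series' design text, with at least 20 reads required, per the labels. Sites are on hg19, per the submitters' processing notes. Which aligner and which caller were used is not given in the sources used here. As no counts were given, no count test could be run and no depth-based interval is printed. The planned fallback was used: limma 3.58.1 in R 4.3.3 on the percent values, with trend and robust moderation, over 59742 complete sites and over 1129 autosomal tiles of 1 Mb with at least 5 sites of 20 to 95%, with Benjamini-Hochberg adjustment and a threshold of 0.05. Library means were compared by two-sided exact permutation tests (20 assignments). Groups came from the sample titles.

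The members and lists were chosen with earlier results of these data known. Named ends had the 4 most negative and 4 most positive differences, among ends with at least 10 sites, and the highest and lowest 3 levels. Named sites were the most extreme without overlap between libraries, 6 each way for TET1-FL against the empty vector and 3 each way otherwise, at most 1 per 1000 bases. Promoter matches and comparisons by regional density were added after seeing the data. Alternatives are given in the closing section. Scripts were tested on simulated data. Deviations of same-numbered libraries across groups correlated between -0.0546 and 0.0185, and those of unlike-numbered libraries between -0.0307 and 0.0786. By this measure the numbers did not pair the libraries. Counts of identical values differed between pairs of libraries. They ran from 636 (TET1-FL libraries 1 and 3) to 4503 (TET1-FL library 2 and TET1-ALT library 1). TET1-FL library 3 and TET1-ALT library 3 shared 3378, and the cause was not tested. 1 promoter sequence and its values are not reported here.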

Additional observations from a re-analysis of the deposited data

How the results depend on the processing

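Of the results that answer a comparison, 14 values under alternatives moved and 5 reversed. The other 182 kept their direction and side of the threshold or stayed within 1.5 times. For means and gaps the exact permutation p cannot be under 0.1, so their side was fixed and only direction was compared. The TET1-FL minus empty vector gap at sites of 20 to 80% counts as kept, though its exact permutation p went from 0.1 to 0.9. Centring each library on other autosomal sites of 80% or more adds 0.959 points to TET1-FL minus empty vector at every site by construction. Under it, 939 subtelomeric sites were called (29 lower, 910 higher) in place of 0. The share called over all sites after centring is not given here, so this count has no background. Several class differences also turned positive. They were 0.891 (under 5%), 0.101 (5 to 20%) and 0.550 (over 95%) points for TET1-FL minus empty vector. For TET1-ALT minus empty vector they were 0.245 (under 5%) and 0.141 (over 95%). For TET1-FL minus TET1-ALT they were 0.647 (under 5%), 0.258 (5 to 20%), 0.0205 (80 to 95%) and 0.409 (over 95%). The gap of TET1-ALT minus empty vector turned negative with 2 Mb (-0.0794 points), with 2 libraries per group as the minimum (-0.0224) and with sites of 20 to 80% (-0.00884). Leaving out 1 library gave -0.0588 (without empty vector library 1) to 0.0427, and -0.0111 without TET1-ALT library 1. The causes were not tested. For TET1-FL minus empty vector, 1 end was called in the main setting, 0 with at least 2 libraries per group, after centring, on the log2 odds scale, with 2 groups in the fit or with 500 kb, and 12 with at least 10 sites per tile, where fewer tiles were tested and 289 were called. Leaving out 1 library gave 0 to 5 called ends, 5 without TET1-ALT library 1, where 180 tiles were called. With 2 Mb, 1 end was called, the low end of chromosome 7, and not the low end of chromosome 20 (adjusted p by limma 0.0541). The adjusted p of the low end of chromosome 20 lay between 0.00920 and 0.198 over the settings in which it was fitted, which leaves out 500 kb. Leaving out 1 library, the mean at sites of 20 to 95% lay between -1.60 and -1.28 points and the gap between 0.0591 and 0.160 points for TET1-FL minus empty vector. For TET1-FL minus TET1-ALT the mean lay between -1.24 and -0.559 points and the gap between 0.0935 and 0.140 points. With a replicate block, limma called 0 subtelomeric sites and 1 end, the low end of chromosome 20 (adjusted p by limma 0.0339). The block changed no call among the subtelomeric sites and ends. Over all tiles, 24 were called with it and 19 without it for TET1-FL minus empty vector. The paired exact p cannot be lower than 0.25. The unknown depth limits what single sites can show.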
